A study of Mus musculus with 4 samples.

Results

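The genes described here are 43 mouse genes for mitosis and the kinetochore, taken by symbol from a fixed list and found in the GENCODE M21 annotation among 21911 protein-coding genes. The rule that names them uses no measured value, but the list was chosen with earlier results of these data known. All 43 were matched. They were read in a peak list from ALaP-seq, a method in which a peroxidase (APEX) fused to a protein of interest biotinylates the chromatin around it, so that the labelled DNA can be captured and sequenced. The target was PML, the protein that organises PML nuclear bodies. The cells were E14 mouse embryonic stem cells of the genotype APEX-PML knockin, grown in serum with leukemia inhibitory factor, CHIR99021 (a GSK3 inhibitor) and PD0325901 (a MEK inhibitor). Of 4 samples, 2 were given hydrogen peroxide (H2O2+), which starts the labelling, and 2 were not (H2O2-), which served as negative controls. All 4 carried the knockin, and the labels do not give the number of clones. The series addresses which genomic regions lie near PML bodies.

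The deposited list used here holds 26496 peaks by chromosome, start and end, with the replicates merged by the authors, and it carries neither a height nor a value for any sample. Treated and control samples could therefore not be compared gene by gene, no spread between replicates could be computed, and sequencing depth per sample is not known. A peak below is an interval of this list, and the list alone does not show whether it was labelled above the H2O2- controls. RNA was not measured, so the cell type was not checked against marker genes. Counts over genes are given beside the same counts over all protein-coding genes, as descriptions with no test. The exact Clopper-Pearson 95% intervals cover counting error only. They treat the genes of a fixed list as independent draws, which they are not.

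Mitosis depends on genes that are switched on late in the cell cycle. Many of their promoters share a pair of short elements, the CCAAT box, which binds NF-Y, and the cell cycle genes homology region (CHR), which binds the DREAM complex in resting cells and MYB-MuvB with FOXM1 in cycling cells. The products condense chromosomes, attach them to the spindle through kinetochores, hold back anaphase until attachment is complete (the spindle checkpoint), and then divide the cell. Embryonic stem cells divide fast and keep such genes active.

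The 3 members with the widest promoter peaks were Anln, Birc5 and Ccnb1, and their promoter sequences are shown first because these peaks cover all of the bases printed. Sequences run upstream of the RefSeq start in build GRCm38.p6, 5′ to 3′ on the strand of the gene, leaving out annotated exons. Capitals mark the CCAAT box (CCAAT, or ATTGG for the other strand) and the CHR (TTTGAA or TTCGAA, or TTCAAA for the other strand).
Anln (chr9:22389207-22389356, minus strand): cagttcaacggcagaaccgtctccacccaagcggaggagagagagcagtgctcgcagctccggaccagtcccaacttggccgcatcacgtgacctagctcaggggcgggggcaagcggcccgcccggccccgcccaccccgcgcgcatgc
Birc5 (chr11:117849087-117849236, plus strand): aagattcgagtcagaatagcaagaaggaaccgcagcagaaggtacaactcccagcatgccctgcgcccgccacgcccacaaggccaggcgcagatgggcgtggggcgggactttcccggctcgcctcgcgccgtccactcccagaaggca
Ccnb1 (chr13:100786571-100786636, minus strand): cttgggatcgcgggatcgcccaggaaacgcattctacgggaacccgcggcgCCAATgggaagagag

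A second set, Cdk1, Cdc20 and Smc2, is shown because both words lay under a promoter peak within 150 bases upstream of the start. All printed bases of Cdk1 and Cdc20, and 118 of the 150 of Smc2, lay inside a peak.
Cdk1 (chr10:69352939-69353062, minus strand): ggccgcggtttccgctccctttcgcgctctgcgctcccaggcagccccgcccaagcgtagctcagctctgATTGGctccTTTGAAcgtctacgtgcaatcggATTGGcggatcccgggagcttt
Cdc20 (chr4:118437353-118437493, minus strand): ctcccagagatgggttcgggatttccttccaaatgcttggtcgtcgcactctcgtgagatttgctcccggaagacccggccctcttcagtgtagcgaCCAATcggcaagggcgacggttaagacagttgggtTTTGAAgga
Smc2 (chr4:52439071-52439220, plus strand): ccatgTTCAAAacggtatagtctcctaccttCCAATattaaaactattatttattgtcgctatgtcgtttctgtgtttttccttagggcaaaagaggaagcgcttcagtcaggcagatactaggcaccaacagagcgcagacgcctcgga

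The third set, the checkpoint kinase genes Bub1 and Bub1b, comes first by name among the members without a promoter peak. The printed stretch holds 2 CCAAT boxes in Bub1 and 1 in Bub1b.
Bub1 (chr2:127831866-127832009, minus strand): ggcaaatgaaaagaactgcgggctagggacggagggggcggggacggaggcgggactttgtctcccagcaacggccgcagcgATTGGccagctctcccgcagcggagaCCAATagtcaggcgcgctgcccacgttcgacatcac
Bub1b (chr2:118598061-118598210, plus strand): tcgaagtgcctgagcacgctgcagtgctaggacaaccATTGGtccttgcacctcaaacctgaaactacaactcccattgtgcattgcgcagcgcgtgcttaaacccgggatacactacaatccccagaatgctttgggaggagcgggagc

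Promoter peaks were present at most of these genes. A gene was counted when any listed peak reached to within 1 kb of its annotated start, upstream or downstream. By this rule 36 of 43 genes had a promoter peak (83.7%, 95% interval 69.3 to 93.2%), against 38.4% of all protein-coding genes. No member lies on chromosome X or Y, and the share among autosomal protein-coding genes was 40.3%. The rule did not have to decide close cases: the peak farthest from its start among the 36 lay 311 bp away (Ndc80), and the nearest peak to a member outside the rule lay 7549 bp away (Cdc25c). In 22 of 43 genes a peak covered the start itself, against 23.0% of all protein-coding genes. Among genes with a promoter peak the shares were close, 61.1% of the 36 members and 59.8% of all such genes. Altogether the members had 45 promoter peaks, 1 at 28 genes, 2 at 7 genes and 3 at Kif20a. Genes with 2 or more made up 8 of 43, against 6.84% of all protein-coding genes. Among genes with a promoter peak, these were 8 of 36 members and 1499 of all 8415.

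**Figure D1:**
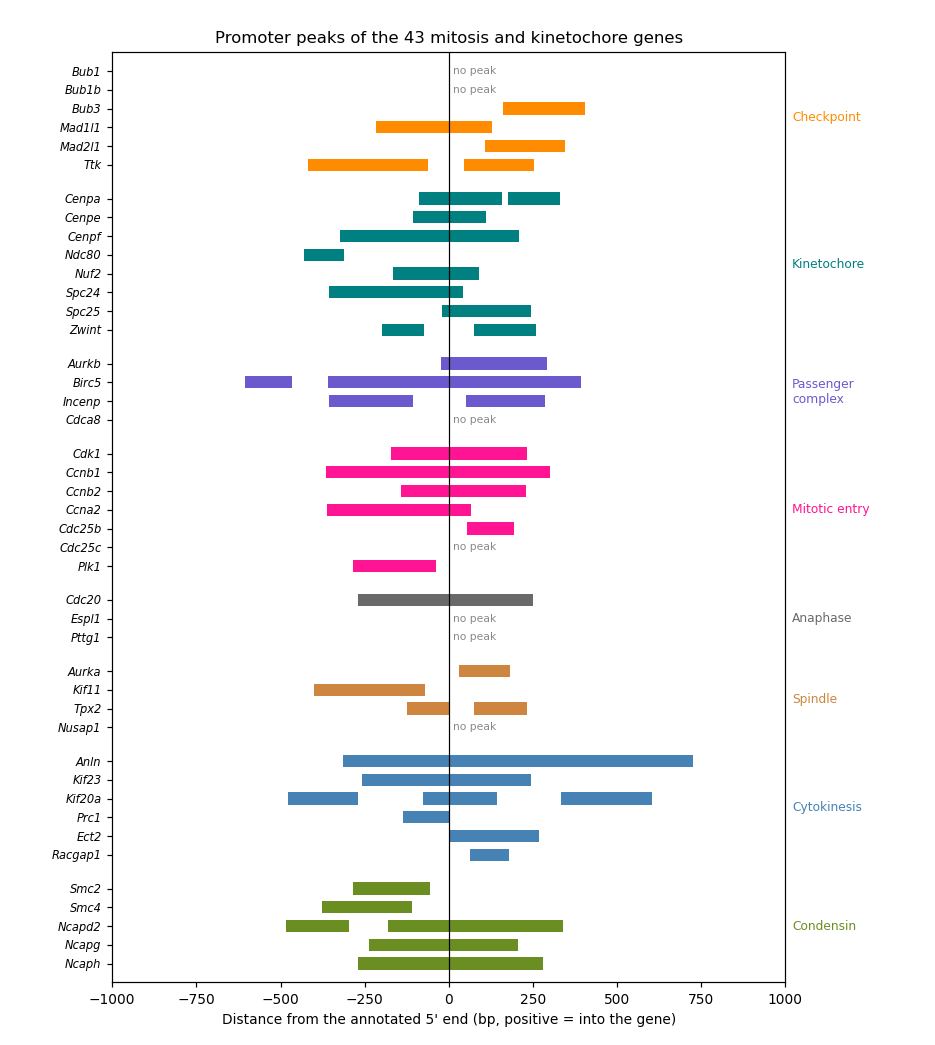
Each row is 1 of the 43 genes, grouped by role, and each bar is a promoter peak drawn to scale, with the distance from the annotated start in bp on the x axis. The 36 genes with a peak have it within 311 bp of the start, and 7 genes have none.

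Kinetochore genes all had a promoter peak, 8 of 8 (95% interval 63.1 to 100%). Cenpf, which encodes a large protein of the outer kinetochore, had the widest, 533 bp (chromosome 1, 189687877 to 189688409), from 323 bp upstream to 209 bp downstream of its start. Spc24 and Spc25 encode 2 subunits of the NDC80 complex, which binds spindle microtubules, and had peaks of 400 and 266 bp over their starts. Nuf2, another subunit, had one of 254 bp over its start. Ndc80 itself had the narrowest of the group, 120 bp (chromosome 17, 71527168 to 71527287), and it lay wholly upstream, from 430 to 311 bp before the start. Cenpa, the gene of the centromeric histone H3 variant, had peaks of 248 and 155 bp, and Cenpe, a kinesin of the kinetochore, had one of 215 bp over its start. Zwint, whose product helps recruit checkpoint proteins, had peaks of 125 and 185 bp on either side of its start.

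Spindle checkpoint genes had a promoter peak in 4 of 6 cases (95% interval 22.3 to 95.7%). Ttk, the kinase that starts checkpoint signalling, had peaks of 357 and 207 bp that flanked its start. Mad1l1 had a peak of 345 bp over its start (chromosome 5, 140321424 to 140321768), which it shared with Nudt1, a gene that starts 104 bp away on the other strand. Mad2l1, the inhibitor of the anaphase-promoting complex that Mad1l1 carries to kinetochores, had one of 237 bp that began 109 bp inside the gene, and Bub3, the partner of the Bub1 and Bub1b proteins, one of 242 bp that began 162 bp inside. By the GENCODE starts, Mad1l1 was the only one of the 6 with a peak over the start itself; the peak of Bub3 covered another start that RefSeq gives for it, at 131560494 on chromosome 7. Bub1 and Bub1b had none.

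Cytokinesis genes had a promoter peak in 6 of 6 cases (95% interval 54.1 to 100%) and condensin genes in 5 of 5 (47.8 to 100%). Anln encodes anillin, the scaffold of the contractile ring, and had the widest promoter peak of all 43 genes, 1039 bp (chromosome 9, 22388464 to 22389502). It reached 724 bp into the gene and was wider than those of 98.8% of protein-coding genes with a promoter peak. Kif23, the kinesin of the centralspindlin complex, had a peak of 500 bp centred near its start, while Racgap1, its partner in that complex, had the narrowest of all members, 117 bp, which began 63 bp inside the gene. Ect2, the exchange factor that activates RhoA at the division plane, had one of 264 bp just inside the gene. Prc1, the bundler of midzone microtubules, had one of 137 bp that ended on the start base. Kif20a shared its 3 peaks, of 206, 219 and 269 bp, with Brd8, whose start lies 12 bp away on the other strand.

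Among the condensin genes, Ncaph had the widest peak (548 bp, chromosome 2, 127133675 to 127134222), followed by Ncapd2 (518 bp) and Ncapg (444 bp), and all 3 covered the start. These encode the non-SMC subunits of condensin I. The genes of the ATPase pair, Smc2 and Smc4, had narrower peaks of 230 and 269 bp that lay upstream only, from 284 to 55 bp and from 377 to 109 bp before the start. By the widest peak of each gene the 2 kinds of subunit did not overlap in width, a description of 5 genes noticed in the values, with no test. Ncapd2 had a further, narrower peak of 186 bp and shared both with Mrpl51, and Smc4 shared its peak with Ift80.

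The 3 groups of kinetochore, cytokinesis and condensin genes together had a promoter peak at 19 of 19 members, and the checkpoint genes at 4 of 6. The share over all protein-coding genes was 38.4%. In a second list of genes, described below, outer kinetochore genes again all had one (14 of 14). Those listed for the inner kinetochore and Cenpa loading (15 of 22), condensin II and related genes (4 of 5) and cytokinesis (3 of 5) did not. The 4 groups of members are small, their genes are not replicates, and their difference was not tested. With only peaks of at least 223 bp, the counts were 5 of 8 kinetochore, 4 of 6 cytokinesis and 5 of 5 condensin members. The checkpoint genes stayed at 4 of 6. The median width of the widest promoter peak was 251 bp in kinetochore genes, 266.5 bp in cytokinesis genes, 293.5 bp in the 4 checkpoint genes with a peak and 444 bp in condensin genes.

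**Figure D2:**
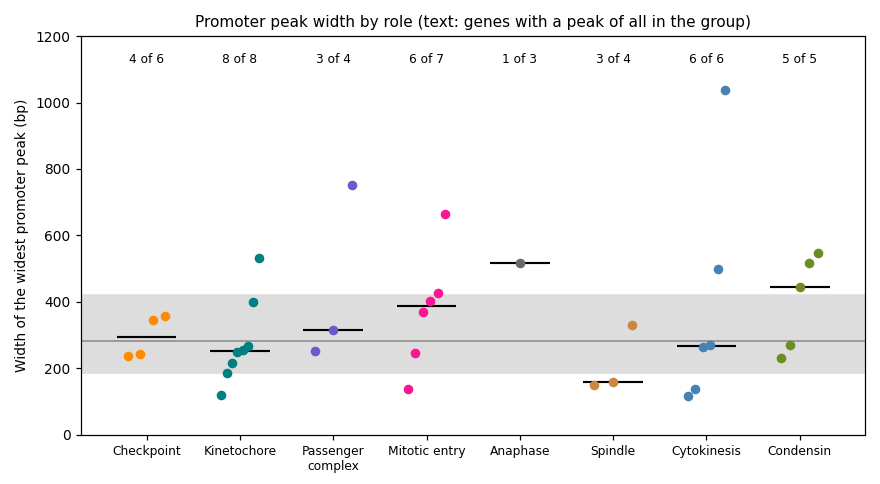
The y axis gives the width in bp of the widest promoter peak of each gene that has one, by role, with black lines at group medians; the grey band and line are the quartiles and median over all 8415 protein-coding genes with a promoter peak. Anln at 1039 bp, Birc5 at 751 bp and Ccnb1 at 664 bp stand highest, and the spindle group has the lowest median, 159 bp.

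Genes for entry into mitosis had a promoter peak in 6 of 7 cases. Ccnb1, the cyclin B1 gene, had a peak of 664 bp (chromosome 13, 100786270 to 100786933), Ccna2 one of 426 bp and Ccnb2 one of 370 bp. Cdk1, the kinase that these cyclins activate, had one of 402 bp (chromosome 10, 69352707 to 69353108). All 4 of these peaks covered the start. Plk1, a kinase that promotes entry and later steps, had one of 246 bp that ended 39 bp before the start. Of the phosphatases that activate Cdk1, Cdc25b had a peak of 139 bp, which also lay in the promoter window of Spef1, and Cdc25c had none.

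The chromosomal passenger complex, which corrects faulty attachments and later acts in cytokinesis, had a promoter peak at 3 of its 4 genes. Birc5 (survivin) had one of 751 bp over the start (chromosome 11, 117848892 to 117849642) and another of 139 bp upstream. Aurkb, the catalytic subunit, had one of 316 bp and Incenp, the scaffold, had peaks of 251 and 233 bp on either side of its start. Cdca8 (borealin) had none. In the spindle group Kif11, the motor that separates the poles, had a peak of 330 bp, Tpx2 peaks of 159 and 127 bp, and Aurka, the kinase that Tpx2 activates, one of 150 bp shared with Cstf1. Nusap1 had none. Of the 3 anaphase genes, Cdc20, the activator of the anaphase-promoting complex, had a peak of 518 bp over its start (chromosome 4, 118437103 to 118437620), and Espl1 (separase) and Pttg1 (its inhibitor, securin) had none.

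The widths of the members' peaks lay in the range of other genes. Their median was 269 bp, with quartiles of 235.2 and 430.5 bp, against a median of 281 bp and quartiles of 185 and 422 bp over all 8415 such genes. Of the members, 6 lay below the lower quartile of that distribution, 13 between it and the median, 7 between the median and the upper quartile, and 10 at or above the upper quartile. The midpoint of the widest peak lay within 250 bp of the start in 33 of 36 members (91.7%), against 74.5% of all genes with a promoter peak. It lay upstream in 17 and downstream in 19. No peak of a member reached farther than 605 bp upstream, where the outer peak of Birc5 begins.

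**Figure D3:**
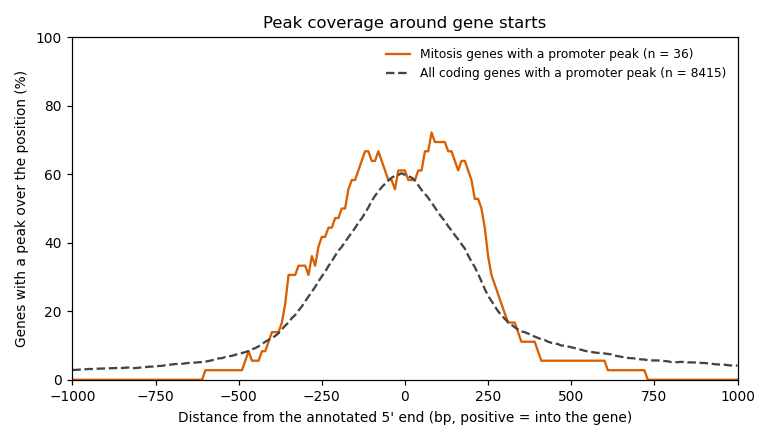
The percent of genes with a peak over each position is plotted against the distance from the annotated start in bp, for the 36 members and for all 8415 protein-coding genes with a promoter peak. At the start itself 61.1% of members were covered against 59.8% of all such genes. At 100 bp into the gene the shares were 69.4% and 48.8%. At 1000 bp on either side no member was covered, against 2.86% of all such genes upstream and 4.14% downstream.

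The 7 genes without a promoter peak were Bub1, Bub1b, Cdca8, Cdc25c, Espl1, Pttg1 and Nusap1. The nearest peak lay 7549 bp from the start of Cdc25c, 7691 bp from that of Bub1, 10119 bp from Bub1b, 16365 bp from Espl1, 32465 bp from Cdca8, 40834 bp from Pttg1 and 44442 bp from Nusap1. Annotated starts of other transcripts gave no further peak. With the starts of all transcripts, 36 of 43 members had a peak, against 42.4% of all protein-coding genes. RefSeq places the start of Cdca8 2394 bp from the GENCODE start, and no peak lay within 1 kb of it either. Repeat-masked bases made up 11.9% (Bub1b) to 39.2% (Espl1) of the promoter windows of these 7, with a median of 23.0%, against 16.6% in the 36 members with a peak. Members with a peak reached similar values, up to 39.1% in Nuf2. Over all protein-coding genes the medians were 15.6% without a promoter peak and 12% with one. Reads were mapped to a repeat-masked genome, and the part of masking in these absences was not tested.

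Nusap1 starts 171 bp from Oip5, the gene of a protein needed to load Cenpa, and neither had a promoter peak. Cdc25c lies 126920 bp from Kif20a on the same chromosome, and only Kif20a had one.

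Over all genes a promoter peak was more frequent where CpG dinucleotides are many, so the members were also set beside genes of like CpG content. The observed/expected ratio over 500 bp either side of the start was divided into 10 classes of equal size. The highest 3 classes held 28 members, of which 26 had a promoter peak, against 69.8% of all genes of these classes. By single class these were 10 of 10 members in class 8, where 68.3% of all genes had one, 8 of 10 in class 9 (72.2%) and 8 of 8 in class 10 (68.8%). Bub1 and Nusap1, in class 9, were the 2 without. In class 7 the count was 4 of 7 (64.8% of all genes), with Bub1b, Cdc25c and Espl1 lacking a peak. It was 4 of 5 in class 6 (53.4%), where Pttg1 lacked one, and 2 of 2 in class 5 (34.1%), the genes Cdk1 and Cdc25b. Cdca8 lay in class 3, in which 5.11% of genes had a peak, by its GENCODE start. At its RefSeq start the ratio over 300 bases was 1.06, so that class rests on the start used. The members' median ratio was 0.768, against 0.553 over all protein-coding genes.

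**Figure D4:**
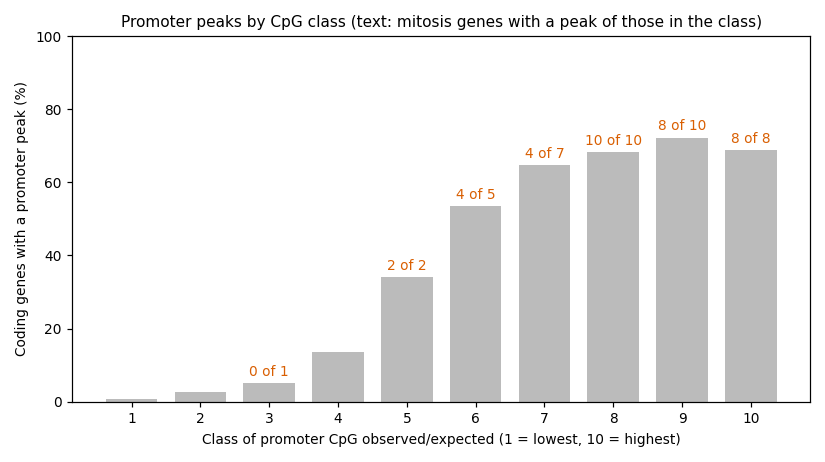
Bars give the percent of all protein-coding genes with a promoter peak in each class of CpG observed/expected, from 1 (lowest) to 10 (highest), and the text above a bar gives the members with a peak of those in the class. The highest 3 classes hold 28 of the 43 members and 26 of the 36 with a peak.

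Some members shared a start region with another gene. A protein-coding gene on the other strand started at most 1 kb upstream of 5 members (11.6%, against 6.76% of all protein-coding genes), and all 5 had a promoter peak (77.0% of all genes with such a partner had one). These were Mad1l1 with Nudt1, Aurka with Cstf1, Kif20a with Brd8, Smc4 with Ift80 and Ncapd2 with Mrpl51. At these 5 genes the peak cannot be assigned to either partner.

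Sequence words of cell cycle promoters were frequent among the members, with and without a peak. RefSeq promoter windows, from 250 bases before to 50 after the start in GRCm38.p6, were matched for 35 members. Aurkb, Ccna2, Cdc25c, Incenp, Kif20a, Smc4, Spc24 and Tpx2 were unmatched. A CHR word (TTTGAA or TTCGAA, either strand) was found in 25 of 35 windows (71.4%), against 17.3% of 16521 windows of the same length. It was present in 21 of the 29 matched members with a promoter peak and in 4 of the 6 without. Of its 31 copies, 25 began within 50 bases of the start and 15 lay inside a peak. Positions and overlap with peaks were not computed for copies in other genes, so these counts have no background. The CCAAT box (CCAAT, either strand) was found in 26 windows (74.3%, against 38.8% of all), and both words together in 23 (65.7%, against 7.2% of all). Among all genes with a promoter peak, 13.1% of windows held a CHR word and 5.9% held both.

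These words were placed differently relative to the peaks from gene to gene. In Cdk1 the CHR copies at 71 and 15 bases before the RefSeq start, and in Cdc20 the copy 18 before it, lay under a peak. In Plk1, Kif11, Ttk and Racgap1 the CHR lay outside the promoter peaks. Bub1b held both a TTTGAA 40 bases inside and a TTCGAA 188 before the start, Bub1 a TTCGAA 14 inside, Espl1 a TTTGAA 27 before and Cdca8 one 13 inside, all with no peak near. Anln held 2 CHR copies, 21 and 28 bases inside the gene, both under its wide peak, and no CCAAT box was found in its window. A match is a run of letters and not a bound site.

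Other words were searched in the same windows on both strands. The GC box (GGGCGG) was in 77.1% of member windows, against 48.2% of all and 69.4% of those with a promoter peak. The ETS word (CCGGAAG) was in 14.3% of member windows, against 12.3% of all and 21.6% of those with a promoter peak. The NRF1 word (GCATGCGC) was in 11.4%, against 3.8% and 6.9%, and one E2F form (TTCCCGC) in 2.9%, against 6.2% and 9.4%. No member window held TATAAA, against 12.9% of all and 5.7% of those with a promoter peak. The NRF1 word was found in Ndc80, Anln, Prc1 and Racgap1. Matches of 2 different words overlapped once, a CHR with a CCAAT box in Cdca8.

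Distal peaks of the members were counted around the same starts. A distal peak, with its midpoint within 50 kb of the start and outside the gene's own promoter window, was found for 33 of 43 members (76.7%), against 61.0% of all protein-coding genes. This share was 78.7% among all genes with a promoter peak. Members had a median of 2 distal peaks and a mean of 2.47, against 1 and 2.14 over all protein-coding genes, and 2 and 3.03 over those with a promoter peak. Peaks at the promoters of other coding genes made up 51 of the members' 106 distal peaks (48.1%), against 38.5% over all genes. Outside such promoters a distal peak was found for 22 members (51.2%), against 48.8% of all protein-coding genes. Like for like, the members with a promoter peak lay lower: 47.2% had such a peak, with a mean of 1.19, against 63.1% and a mean of 1.85 over all genes with a promoter peak, a difference that was not tested. The 106 peaks comprised a further 24 in introns, 24 between genes and 7 in exons, and 3 lay inside the member itself. Only protein-coding genes were used for these places, so a peak between genes may lie in a noncoding gene.

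Aurkb had the most distal peaks, 15. Of these, 6 lay between genes from 8626 to 3822 bp upstream of its start, with widths of 123 to 411 bp, and the widest, 1323 bp, lay 28214 bp downstream near Tmem107. A further 6 were at the promoters of Pfas, Ctc1, Borcs6, Tmem107, Vamp2 and Per1. Without Aurkb the members' mean was 2.17. Espl1, with no promoter peak, had 9 distal peaks, 4 of them in introns of Rarg, a retinoic acid receptor gene, including one of 1058 bp. Spc24 had 7, among them one of 273 bp that lay 2043 bp upstream of its own start. Ncapd2 also had 7, among them peaks of 1112 bp in an exon of Iffo1 and 1109 bp in one of Gapdh, and one of 231 bp in its own intron. Tpx2 had 6, all in or at Bcl2l1, an anti-apoptotic gene upstream, and Birc5 had 6. Prc1 had 5, each at the promoter of another gene (Ttll13, Ngrn, Rccd1, Unc45a and Hddc3), and Cdc25b and Cdc25c had 4 each. One of the 3 distal peaks of Ccnb1 lay at the promoter of Cenph, a gene of the inner kinetochore, 10763 bp away.

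All 7 members without a promoter peak had a distal one, against 61.0% of all protein-coding genes. Outside coding promoters 5 of the 7 had one, against 48.8%. The share over all genes without a promoter peak was not computed. Bub1b had a peak of 347 bp between genes 10292 bp upstream and one of 171 bp in its own exon 43078 bp downstream, Bub1 had peaks at the promoters of Acoxl and Mtln, and the single peaks of Nusap1 and Cdca8 lay at the promoter of Ndufaf1 and in an intron of Epha10. The 10 members with no distal peak were Mad2l1, Cenpe, Ndc80, Nuf2, Zwint, Incenp, Ccnb2, Aurka, Smc2 and Ncapg, and 4 of these are kinetochore genes. The mean number was 1.5 in kinetochore genes, 1.67 in checkpoint genes, 2 in condensin genes, 2.67 in cytokinesis genes and 5.5 in the passenger complex, where Aurkb holds 15 of 22 peaks.

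**Figure D5:**
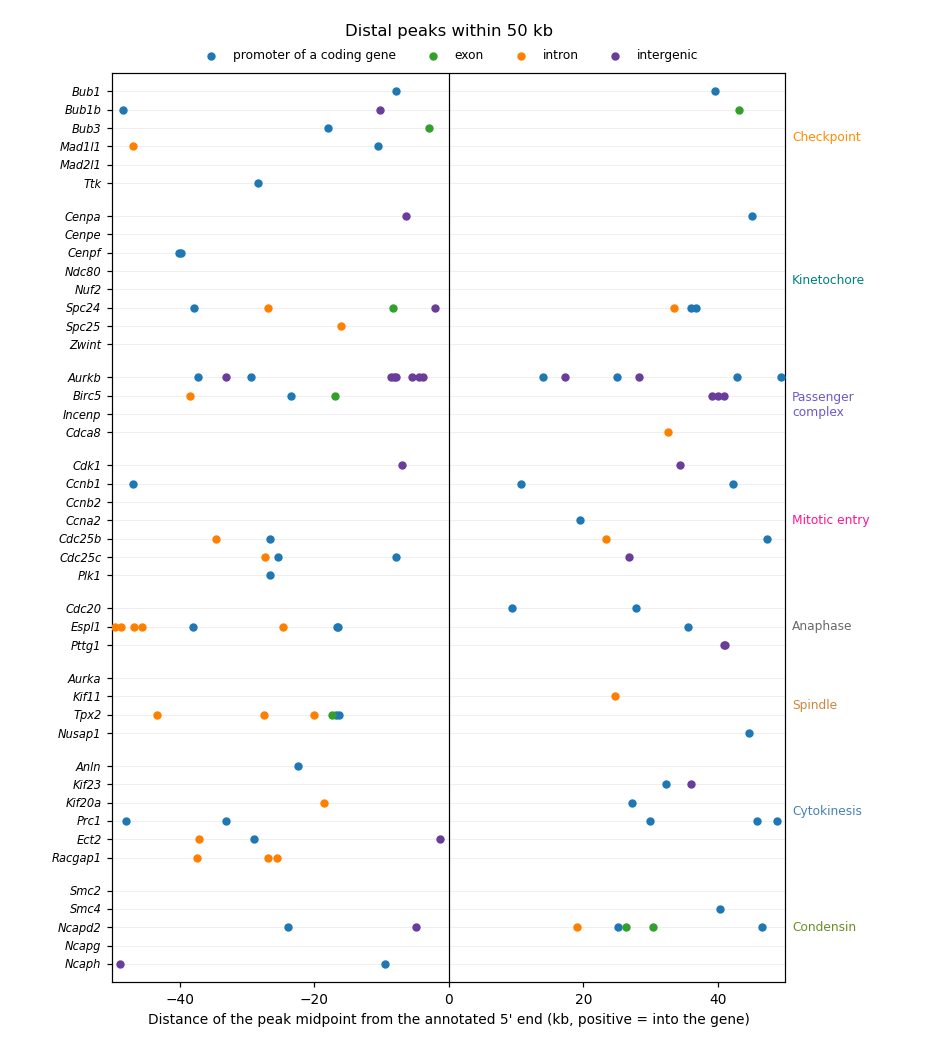
Each point is the midpoint of a distal peak, by gene (rows) and distance from the annotated start in kb (x axis), coloured by where it lies. The row of Aurkb holds 15 points, and 10 rows hold none.

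Other genes of the same processes were read in the same way, from a list of 108 that holds none of the 43. A promoter peak was present at 86 (79.6%, 95% interval 70.8 to 86.8%), and at 86 of the 103 on autosomes. With the starts of all annotated transcripts, an alternative added after seeing the data, it was 91, since Anapc15, Stag1, Chmp4b, Cenpj and Itgb3bp had a peak at another start. The 5 on chromosome X, where 4.22% of protein-coding genes had one, were all without: Cenpi, Smc1a, Stag2, Kif4 and Ccnb3. Outer kinetochore genes, listed together with the checkpoint regulators Trip13 and Mad2l1bp, had one at 14 of 14, with Kntc1 (620 bp) and Ska2 (603 bp) widest. Genes listed for the inner kinetochore and Cenpa loading had one at 15 of 22, with Hjurp, the chaperone of Cenpa, at 875 bp and Cenpp at 795 bp. These 22 include Cenpj, a gene of centriole assembly, which is among those counted as without. Genes of the anaphase-promoting complex and its partners had one at 15 of 18. Fbxo5, the gene of its inhibitor Emi1, had the widest of the 108, 1299 bp, Anapc13 had one of 899 bp, and Anapc4, Anapc15 and Cdc16 had none. Kinesin genes had one at 8 of 9, with Kif15 (665 bp) and Kifc1 (474 bp) widest.

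Cohesin and its protectors had a promoter peak at 9 of 13 genes, with Sgo1 (518 bp) and Esco2 (509 bp) widest and Smc1a, Stag1, Stag2 and Nipbl without. Condensin II genes with Top2a and Mki67 had one at 4 of 5, with Ncapg2 (503 bp) and Top2a (353 bp) widest and Ncapd3 without. Further mitotic kinases and cyclins had one at 10 of 12, with Ccnf at 1075 bp and Cks1b at 839 bp, and Plk4 and Ccnb3 without. Cytokinesis genes had one at 3 of 5, with Cep55 (510 bp) and Rhoa (505 bp) widest and Cit and Chmp4b without. Genes of the DREAM complex and its activating partners had one at 8 of 10, with Rbbp4 (976 bp) and Rbl1 (646 bp) widest and Foxm1 and E2f4 without. CHR words were found in 41 of the 92 matched windows of this list (44.6%), CCAAT boxes in 47 and both together in 23.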

How the data were processed

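ALaP-seq of APEX-PML embryonic stem cells gave 4 samples. Per the submitters' processing notes and the series' design text, Trimmomatic served for trimming and Bowtie2 2.3.5.1 for mapping to repeat-masked mm10, and bedtools for taking out blacklisted and greylisted regions. How peaks were called and merged is not given in the sources used here. This deposited list gives positions only, in no other unit, with replicates merged by the authors. Signal tracks were not used here.

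Positions were read as 1-based intervals on GRCm38, the assembly of mm10, and 0 peaks ran past a chromosome end. Of 21938 protein-coding models in GENCODE M21, 27 with a repeated symbol were dropped. The annotated start is the 5′ end of the gene model. Overlap was computed in Python 3.11.15 with pandas 2.3.3, intervals with scipy 1.17.1. On a simulated list, 200 of 200 genes got the planted promoter and distal answers. No test was run on the members. Members and lists were chosen with earlier results of these data known. Genes named are all members, with the 10 widest promoter peaks, those without one and the 8 highest distal counts in full, and in the other lists the 2 widest and those without a peak where 6 or fewer. Alternatives changed the window, the overlap rule, the starts, the distance and the minimum width.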

Additional observations from a re-analysis of the deposited data

How the results depend on the processing

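The count of members with a promoter peak was 36 with windows of 500 bp and 2 kb, with the peak midpoint or at least 50% of the peak in the window, and with the starts of all transcripts. With only peaks of at least the median width, 223 bp, it was 28, against 24.7% of all protein-coding genes. That setting took the kinetochore genes from 8 to 5 (without Cenpe, Ndc80 and Zwint) and the spindle genes from 3 to 1 (without Aurka and Tpx2). It also took the cytokinesis genes from 6 to 4 (without Prc1 and Racgap1), while the checkpoint genes stayed at 4 and the condensin genes at 5. Of the 48 counts by role over all settings, 46 stayed within 1.5 times their main value, those of the cytokinesis genes among them. Only the minimum width changed any of these counts. The window and overlap settings had no close cases to decide, with promoter peaks within 311 bp and no other peak nearer than 7549 bp. The number that stayed is therefore no measure of robustness.

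Distal values follow the distance used. Within 20 kb, 20 members (46.5%) had a distal peak, against 38.7% of all protein-coding genes, with 0.767 per member (0.828 over all protein-coding genes), and within 100 kb the mean was 4.7 (4.23). Without peaks at coding promoters it was 1.28 (1.32), and with only the wider peaks 1.33 (1.09). By this mean, members lay slightly above all genes in 3 of these 5 settings and below in 2.

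No paired analysis was possible because the list holds no values per sample. Depth and peak strength are unknown, so a gene without a peak is one with none listed.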
